A study of Ovis aries with 6 samples.

Results

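The genes described here encode the basal machinery of transcription: the subunits of RNA polymerases I, II and III, the subunits of Mediator, the TATA-box-binding protein associated factors (TAFs) and the general transcription factors of the TFII and TFIII classes. The families were chosen with earlier results of these data known. Their genes were taken by symbol alone. No measured value entered this choice, except that the row with the highest mean was kept where a symbol had several rows. The choice gave 93 genes of 14480 rows in the gene table, of which 10189 carry a symbol: 29 polymerase subunits, 23 Mediator subunits, 20 TAFs and 21 TFII or TFIII factors. Of 105 protein-coding symbols of these families in the RefSeq sheep annotation, 92 were listed, and 13 had no row under their symbol, among them POLR2L, POLR2M, MED12, MED15, MED17, MED26, TAF7L and TAF9.

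RNA was measured in ovaries of Hu sheep and of Mongolian sheep, all collected in estrus, with 3 libraries of polyadenylated RNA per breed. Hu ewes commonly bear several lambs at a time and Mongolian ewes mostly single lambs, so the comparison sets ovaries of a prolific breed against those of a less prolific breed. No treatment or genetic change is named for either breed, and the sources used here give neither the age of the ewes nor whether each library came from its own animal, so p-values measure the spread between these libraries, which may be technical. The title of the series names exosomes, whereas the source of every sample is ovary. Levels are FPKM, in which fragments are divided by transcript length and by the size of the library, so levels of different genes can be compared within a library. Values in order are replicates 1, 2 and 3 of a breed. Where values are given across the ovaries of a breed, they are those of its 3 libraries, not of 3 known animals.

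As background, RNA polymerase I transcribes the large ribosomal RNA precursor, RNA polymerase II transcribes messenger RNAs, and RNA polymerase III transcribes transfer RNAs, the smallest ribosomal RNA and other short RNAs. The polymerases have their own catalytic cores but share a set of small subunits. TFIID (the TATA-box-binding protein with TAFs), TFIIA, TFIIB, TFIIE, TFIIF and TFIIH assemble with RNA polymerase II at promoters, Mediator connects them to activators such as the nuclear hormone receptors that act in the ovary, and TFIIIA and TFIIIC recruit RNA polymerase III.

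The libraries differed in how many rows they list above 0 FPKM, from 44.9% and 55.0% of rows in Hu 1 and Hu 2 to 92.1% in Hu 3, with 72.8% to 79.2% in Mongolian libraries. In every library but Hu 3, 74.2% to 79.7% of the summed FPKM lay in 2 rows, against 53.3% in Hu 3, which leaves more of the total for all other genes there. Of the ovarian cell markers examined, 6 of 6 stromal genes and 4 of 4 smooth muscle genes were above 0 in all 6 libraries. Stromal markers summed to 670 to 864 FPKM in the Hu libraries, against 637 to 748 in the Mongolian libraries. By gene, LUM and POSTN were higher in every Hu library than in any Mongolian library, and the other stromal genes overlapped. Lower in every Hu library was MYH11 of smooth muscle, at 105, 110 and 176 FPKM against 224, 195 and 303 in Mongolian libraries. So were HSD17B1 of granulosa, at 0, 0 and 0.629 against 3.69, 2.46 and 6.52, and PTPRC of leukocytes, at 1.22, 0 and 1.36 against 2.15, 3.96 and 3.87. The other markers examined overlapped. Granulosa markers, 4 of 7 listed, summed to 26.2 to 182 FPKM across Hu libraries, against 43.6 to 55.5 across Mongolian libraries. Of 10 oocyte markers, 2 were listed, with sums of at most 0.324 FPKM in Hu and 0.888 in Mongolian libraries. In bulk tissue, fewer cells of a type and less RNA per cell cannot be told apart.

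The number of machinery genes listed above 0 was lowest in Hu 1 and highest in Hu 3, as was that of all rows. It was 44, 62 and 93 of 93 in Hu and 79, 80 and 68 in Mongolian libraries. Hu 3 was the sole library that listed all 93, and it held the highest value of 51 of them. Among the 78 genes with enough signal to test, 55.1% were highest in Hu 3, where the share of all genes tested was 45.0%. Of the 93 genes, 37 were above 0 in all 6 libraries (39.8%, against 34.8% of all rows). Above 0 in Hu 3 alone among Hu libraries were 26 (28%, against 30.7% of all rows), among them POLR1E, POLR2G, POLR2H, POLR2I and GTF3A. Depth is unknown, and genes that every cell needs are among the zeros, so a value of 0 is described only as listed at 0.

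**Figure D1:**
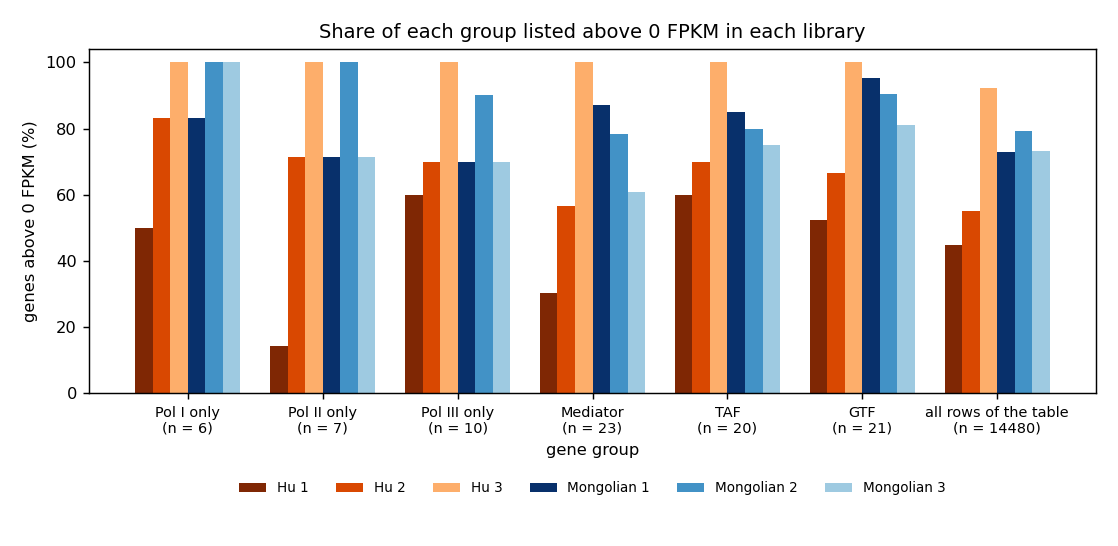
Share of each gene group above 0 FPKM (y axis, %) in each of the 6 libraries (bars), with all rows of the table at the right. Hu 1 lists 14.3% of subunits found in RNA polymerase II alone and 30.4% of Mediator, against 60% of those found in RNA polymerase III alone and of TAFs, and Hu 3 lists 100% of every machinery group.

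The share listed in Hu 1 ranged widely between groups, a difference that was not tested. In that library, 1 of 7 subunits found in RNA polymerase II alone was above 0, compared with 3 of 6 for RNA polymerase I and 6 of 10 for RNA polymerase III. Mediator had 7 of 23 subunits above 0 in Hu 1, and its head module 1 of 11. In the same library 11 of 21 TFII and TFIII factors and 12 of 20 TAFs were above 0. Over all rows of the table the share in Hu 1 was 44.9%.

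No machinery gene differed between the breeds beyond the adjusted threshold. The genes whose 3 Hu values all lay on the same side of the 3 Mongolian values were POLR3K and TAF15, higher in Hu, and MED22, MED24 and TAF8, lower in Hu. Of the 93 genes, 78 reached 0.5 FPKM in at least 3 libraries and were tested with limma on log2(FPKM + 1), on which all log2 differences below are given as Hu minus Mongolian. The genes nearest to that limit were TAF6L below it, with a third-highest value of 0.466 FPKM, and GTF3A above it, with 0.575. No limma p under 0.05 was left after Benjamini-Hochberg adjustment in the 78, nor in the 9971 genes tested (0%). An unadjusted p under 0.05 was found for 2 of 78, 2.56%, where the share of all genes tested was 3.73%. POLR3K was the 1 of these with a higher level in Hu (0.913% of all genes tested) and MED22 the 1 with a lower level (2.82%). Hu values all above Mongolian values were found in 2 of 78 (2.56%, against 1.88% of all genes tested) and all below in 3 of 78 (3.85%, against 6.05%). A positive difference was found in 28 of 78 (35.9%, against 32.3%). These shares are near the background.

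**Figure D2:**
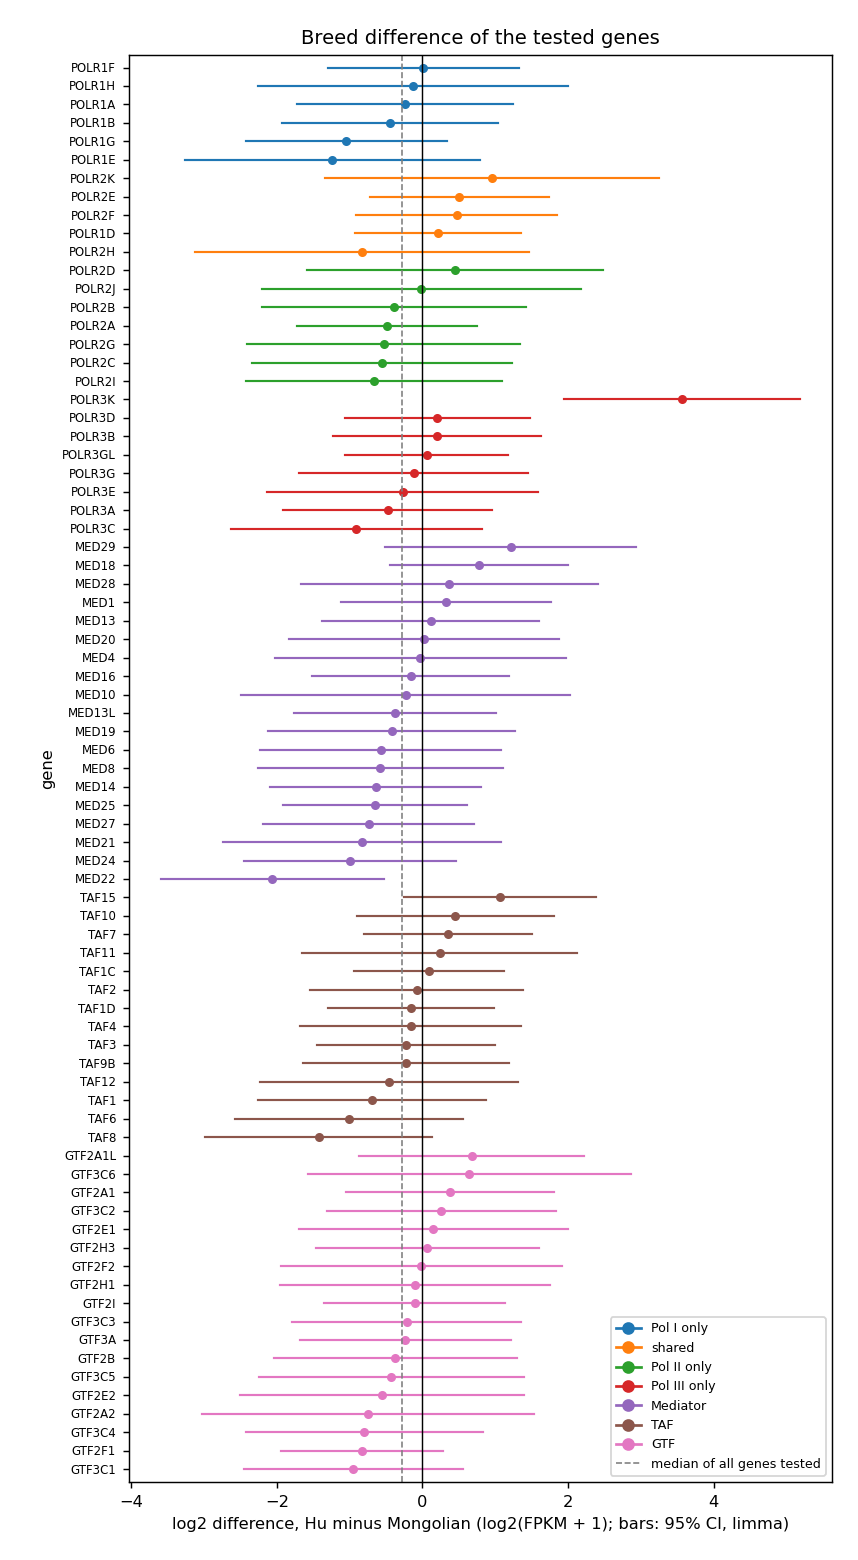
Log2 difference in level, Hu minus Mongolian, of 77 tested machinery genes with the unadjusted 95% confidence interval of limma (x axis), grouped by complex; the dashed line is the median of all genes tested, -0.28. The intervals of POLR3K and MED22 alone leave out 0, and neither gene passes the adjusted threshold.

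Among subunits particular to RNA polymerase I, the catalytic subunit POLR1A was the most even. It stood at 1.96, 2.38 and 2.74 FPKM across the Hu ovaries, compared with 2.505, 2.76 and 3.68 across the Mongolian ovaries, a range of 1.87-fold over all 6 libraries. The breeds overlapped, with means of 2.36 ± 0.39 and 2.98 ± 0.62 (SD, n = 3 each) and a log2 difference, Hu minus Mongolian, of -0.24 (95% interval from -1.73 to 1.25). POLR1B, its catalytic partner, stood at 0, 1.66 and 1.95 FPKM for Hu, with 2.20, 1.34 and 1.64 for Mongolian. It lay below POLR1A in every library, and Hu 2 and Hu 3 lay within the Mongolian range.

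POLR1G, which with POLR1E forms a dimer related to TFIIF, stood at 2.62, 3.03 and 5.27 FPKM in the Hu libraries, against 7.67, 5.21 and 13.9 in the Mongolian libraries. Its highest Hu value barely passed its lowest Mongolian value, and the log2 difference of -1.04 (95% interval from -2.43 to 0.34) did not pass the threshold (limma adjusted p = 0.998). POLR1E stood at 0, 0 and 12.7 across the Hu ovaries, compared with 3.87, 3.84 and 6.70 across the Mongolian ovaries, so its highest and its lowest values were all in Hu. The stalk subunit POLR1F stood at 6.69, 5.11 and 9.49 for Hu, with 11.2, 5.23 and 5.33 for Mongolian. POLR1H, the zinc-ribbon subunit at the active site, was listed at 0 in Hu 1 and Mongolian 1 and between 3.11 and 9.91 FPKM elsewhere, so its zeros did not separate the breeds.

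Of the pair that RNA polymerases I and III share, the assembly subunits POLR1C and POLR1D, the levels were far apart. POLR1D had the highest mean of the polymerase subunits and was the highest in 4 of 6 libraries, at 12.9, 24.3 and 37.2 FPKM in the Hu libraries, against 23.2, 17.96 and 17.6 in the Mongolian libraries. POLR1C reached at most 1.24 FPKM and was listed at 0 in Hu 1, Mongolian 1 and Mongolian 3, so it was too low to test.

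Of the listed subunits common to all polymerases, POLR2E and POLR2F were also abundant. POLR2E stood at 8.75, 17.3 and 26.4 FPKM in the Hu libraries, against 11.7, 7.88 and 14.1 in the Mongolian libraries, and POLR2F at 15.1, 7.25 and 25.5 and at 9.34, 4.99 and 20.5. Neither separated the breeds. The small zinc-binding subunit POLR2K stood at 11.5, 0 and 16.3 across the Hu ovaries, compared with 1.65, 0 and 10.3 across the Mongolian ovaries, and POLR2H at 0, 0 and 11.9 for Hu, with 6.41, 8.91 and 0 for Mongolian. Both genes of this pair were listed at 0 in Hu 2 and above 0 in Hu 3 and Mongolian 1. Only POLR2K was above 0 in Hu 1 and Mongolian 3, and only POLR2H in Mongolian 2.

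POLR2A, the largest subunit of RNA polymerase II and the carrier of its regulatory tail, was the sole subunit particular to this polymerase that was above 0 in all libraries. It stood at 6.47, 9.93 and 9.59 FPKM in the Hu libraries, against 14.9, 7.14 and 17.5 in the Mongolian libraries. The means were 8.66 ± 1.91 and 13.2 ± 5.39 (SD, n = 3 each), with overlapping values and a log2 difference, Hu minus Mongolian, of -0.49 (95% interval from -1.73 to 0.75). POLR2A was higher than POLR1A in 6 of 6 libraries, with a median ratio of 3.83 (2.59 to 5.94), and higher than POLR3A in 6 of 6. The order of the largest subunits was therefore RNA polymerase II first in every library, while POLR1A exceeded POLR3A in 5 of 6, the exception being Mongolian 3.

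POLR2B, the second catalytic subunit, stood at 0, 2.86 and 7.91 FPKM across the Hu ovaries, compared with 1.71, 5.05 and 3.69 across the Mongolian ovaries. POLR2C, which starts the assembly of the enzyme, stood at 0, 6.72 and 6.61 for Hu, with 4.97, 3.0 and 6.78 for Mongolian, and POLR2J, its partner, at 0, 6.42 and 10.9 and at 8.06, 9.02 and 0. For these genes Hu 2 and Hu 3 lay within or above the Mongolian values, and Hu 1 was listed at 0. The stalk subunits were above 0 together in Hu 3 and Mongolian 2 alone. POLR2D stood at 0, 10.1 and 2.67 in the Hu libraries, against 0, 1.32 and 5.95 in the Mongolian libraries, whereas POLR2G stood at 0, 0 and 5.79 across the Hu ovaries, compared with 2.55, 4.76 and 0 across the Mongolian ovaries. POLR2I, the zinc-ribbon subunit, stood at 0, 0 and 3.24 for Hu, with 0, 6.95 and 1.11 for Mongolian. In no subunit particular to RNA polymerase II did the breeds separate.

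RNA polymerase III held the machinery gene with the smallest p. POLR3K, the zinc-ribbon subunit that serves transcript cleavage and termination (ENSOARG00000010407), was listed at 4.69, 11.0 and 23.4 FPKM in Hu and at 0 in all 3 Mongolian libraries. Of 14480 rows, 13 were listed at 0 in all Mongolian and above 0 in all Hu libraries, and 52 the other way round; POLR3K was the sole machinery gene among them. Limma gave an unadjusted p of 0.000281 and an adjusted p of 0.998. POLR3K met the filter for testing through its Hu values alone, and its Mongolian values had an SD of 0. Its p is therefore given as a description only. The fitted difference depends on the pseudocount, 3.57 on the log2 scale with 1 and 6.75 with 0.1, and is not a fold change. When 1 Hu library was left out it ranged from 3.05 to 4.10. Leaving out a Mongolian library could not change it, and leaving out no library could turn its sign.

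SNRNP25, a protein gene of the minor spliceosome, overlaps POLR3K in the RefSeq sheep annotation (ARS-UI_Ramb_v3.0, which may not be the build of the files). It was examined after the values of POLR3K were seen. SNRNP25 was listed at 0 in Hu 1 and Hu 2 and at 13.01 FPKM in Hu 3, while it was at 3.47, 6.31 and 5.98 in Mongolian libraries. In 5 of 6 libraries 1 gene of the pair was listed and the other was at 0, and Hu 3 alone listed both. Whether fragments were counted by strand is not given in the sources used here, so fragments of overlapping genes may not be told apart, and the part of this in the POLR3K values was not tested.

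**Figure D3:**
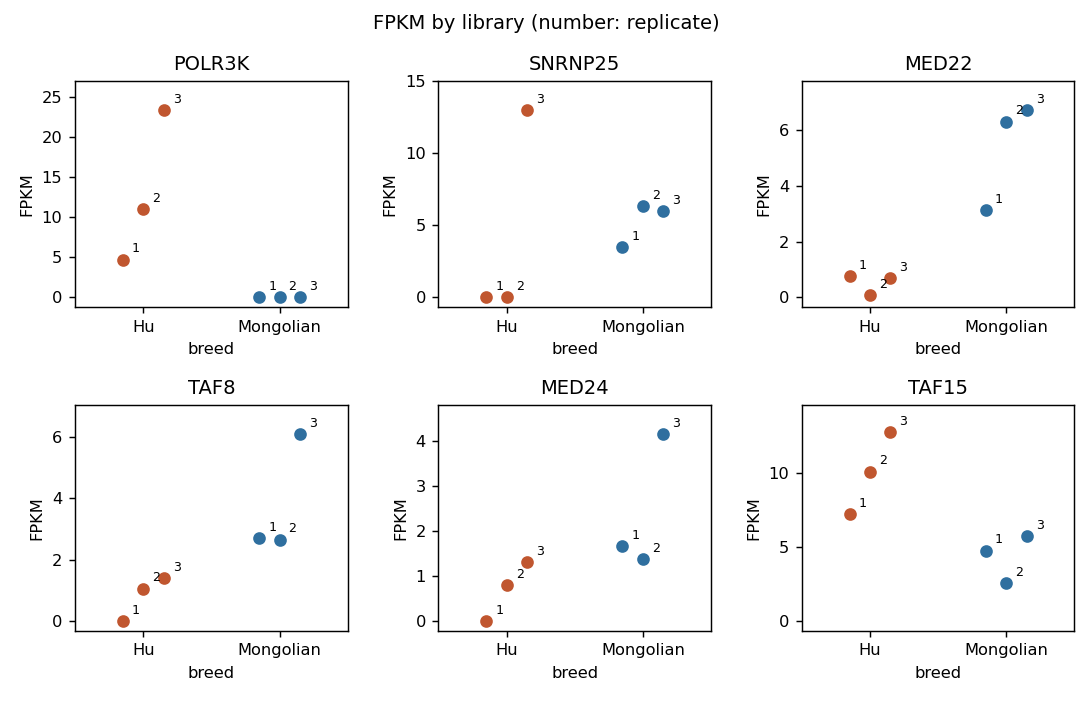
FPKM of POLR3K, its RefSeq neighbour SNRNP25, and the 4 other tested machinery genes whose breeds do not overlap (points: libraries, numbered by replicate; linear y axes of different range). POLR3K is at 0 in every Mongolian library while SNRNP25 is at 0 in Hu 1 and Hu 2.

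The subunits described next, also particular to RNA polymerase III, did not separate the breeds. The largest subunit POLR3A stood at 0.764, 0 and 1.60 FPKM in the Hu libraries, against 0.777, 0.444 and 3.81 in the Mongolian libraries, a log2 difference, Hu minus Mongolian, of -0.48 (95% interval from -1.92 to 0.96). POLR3B, the second catalytic subunit, stood at 0.660, 2.18 and 2.15 across the Hu ovaries, compared with 1.41, 1.24 and 1.04 across the Mongolian ovaries. Both were low, and POLR3B was the sole second catalytic subunit above 0 in Hu 1, where POLR1B and POLR2B were listed at 0.

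POLR3D and POLR3E form the TFIIF-like dimer of this enzyme. POLR3D stood at 17.8, 5.85 and 15.1 FPKM for Hu, with 14.2, 9.58 and 7.45 for Mongolian, and POLR3E at 0, 8.61 and 4.84 and at 1.54, 5.71 and 4.79. Hu 1 was thus the highest library for POLR3D and the lowest for POLR3E.

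POLR3C, POLR3F and either POLR3G or POLR3GL make up the trimer that opens promoters; POLR3G is the form known from stem cells and dividing cells, and POLR3GL the form of most adult tissues. POLR3GL stood at 14.4, 11.1 and 18.2 FPKM across the Hu ovaries, compared with 13.8, 13.2 and 14.0 across the Mongolian ovaries, a range of 1.64-fold over 6 libraries, with means of 14.6 ± 3.57 and 13.7 ± 0.40 (SD, n = 3 each). POLR3G stood at 0, 0 and 4.14 for Hu, with 2.87, 0.701 and 0 for Mongolian. POLR3GL exceeded POLR3G in 6 of 6 libraries, by 4.40-fold to 18.9-fold in the 3 libraries where POLR3G was above 0. POLR3GL and POLR1A had the smallest spread of all polymerase subunits, an SD of 0.22 each for log2(FPKM + 1) over 6 libraries, where rows above 0 in all libraries had a median SD of 0.64. POLR3C stood at 0, 2.25 and 6.4 in the Hu libraries, against 3.94, 4.61 and 4.71 in the Mongolian libraries, and POLR3F was above 0 in Hu 3 and Mongolian 2 alone, at 2.15 and 2.56.

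**Figure D4:**
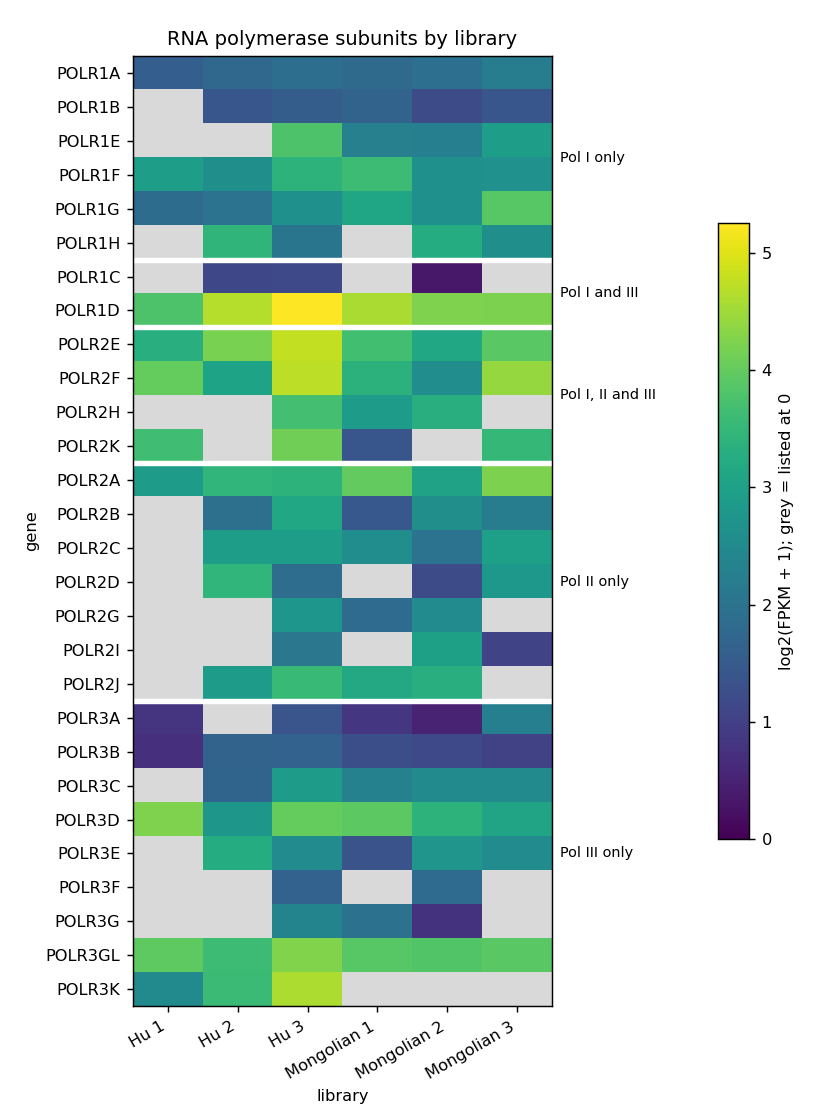
Level of 28 polymerase subunits (rows, grouped by the polymerase they belong to) in the 6 libraries (columns), as log2(FPKM + 1) in colour; grey marks genes listed at 0. POLR1A, POLR2A and POLR3GL are coloured in every column, and the POLR3K row is grey in the 3 Mongolian columns.

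The polymerases were then set against each other. To allow for the rows that dominate the libraries, summed FPKM was taken as a share of each library's remaining FPKM. The remainder leaves out the same 2 rows in every library, those with the highest mean over the 6 libraries. Subunits particular to RNA polymerase III held 0.0435%, 0.0417% and 0.0397% in Hu and 0.0315%, 0.0316% and 0.0383% in Mongolian libraries, so the breeds did not overlap. Without POLR3K, a setting chosen after its values were seen, the Hu shares were 0.0384%, 0.0311% and 0.0286%. Hu 1 was then next to the highest Mongolian library and Hu 2 and Hu 3 were below all Mongolian libraries, so the separation rested on POLR3K.

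Subunits particular to RNA polymerase II held 0.00713%, 0.0346% and 0.0222% of that total in Hu and 0.0263%, 0.0292% and 0.0305% in Mongolian libraries. Those particular to RNA polymerase I held 0.0124%, 0.0213% and 0.0168% in Hu and 0.0224%, 0.0211% and 0.0317% in Mongolian. In both cases the lowest share was that of Hu 1. Hu 2 lay above all Mongolian libraries for RNA polymerase II and above Mongolian 2 for RNA polymerase I, so the breeds overlapped. No p is given for these sums, since they are scores over chosen genes.

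**Figure D5:**
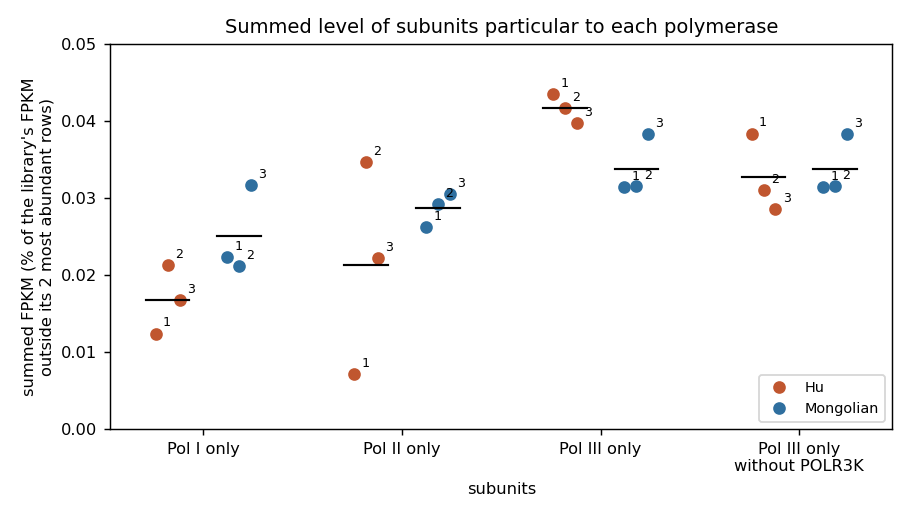
Summed FPKM of subunits particular to each polymerase, as a percentage of the library's FPKM outside the 2 rows with the highest mean over the 6 libraries (points: libraries, numbered by replicate, lines: means of 3). The Hu points lie above the Mongolian points for RNA polymerase III, between 0.0397% and 0.0435%, and overlap with them, between 0.0286% and 0.0384%, once POLR3K is left out.

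Of the 27 polymerase subunits tested, 11 were higher in Hu and 16 lower, and none passed the adjusted threshold (limma; POLR3K alone had an unadjusted p under 0.05). The median log2 difference was -0.34 over 6 subunits of RNA polymerase I, -0.49 over 7 of RNA polymerase II and 0.06 over 9 of RNA polymerase III, where that of all 9971 genes tested was -0.28. Without POLR3K the median of RNA polymerase III was -0.03. After quantile normalization, which moved the median of all genes to 0.02, these medians were 0.001, -0.27 and 0.20. Without Hu 1 the median of RNA polymerase II turned to 0.43, where that of all genes was 0.01. Without Mongolian 2 it turned to 0.01, where that of all genes was -0.30. Without Hu 3 the median of RNA polymerase III turned to -0.19, but that of all genes moved to -0.66. Without Hu 2, a setting used further below, the median of all genes was -0.18.

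Mediator had 19 of 23 subunits abundant enough to test. MED22, a head subunit (ENSOARG00000003695), stood at 0.757, 0.0848 and 0.686 FPKM across the Hu ovaries, compared with 3.13, 6.32 and 6.74 across the Mongolian ovaries. Every Hu value was below every Mongolian value, with means of 0.509 ± 0.37 and 5.4 ± 1.97 (SD, n = 3 each) and a difference of -2.06 on the log2 scale (standard error 0.72, 95% interval from -3.60 to -0.53). Limma gave an unadjusted p of 0.0117 and an adjusted p of 0.998. The difference ranged from -2.35 to -1.84 when 1 library was left out, and could not turn, since the breeds do not overlap. Its neighbours in the RefSeq annotation were RPL7A, between 430 and 875 FPKM in the 6 libraries, and SURF6, which stood at 0, 7.29 and 8.12 FPKM for Hu, with 6.71, 21.7 and 20.4 for Mongolian.

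MED24, a tail subunit, stood at 0, 0.797 and 1.31 FPKM in the Hu libraries, against 1.67, 1.38 and 4.16 in the Mongolian libraries, again without overlap, though Hu 3 and Mongolian 2 were close (limma unadjusted p = 0.168). MED25, a tail subunit that binds activators, had the highest mean of Mediator over the 6 libraries and was its highest gene in 3. It stood at 7.14, 9.89 and 6.87 across the Hu ovaries, compared with 7.58, 11.9 and 23.5 across the Mongolian ovaries. MED14, the backbone that joins the modules, stood at 0.603, 0 and 2.22 for Hu, with 1.23, 1.43 and 2.63 for Mongolian. All 4 tested tail subunits had a lower mean log2 level in Hu, with a median difference of -0.65, and none of the 4 passed. Of all 9971 genes tested, 6750 were lower in Hu, with a median difference of -0.28. After quantile normalization the differences of MED14 and MED16 changed sign.

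MED1, the subunit through which many nuclear receptors bind, stood at 3.84, 2.94 and 7.23 FPKM in the Hu libraries, against 3.64, 2.98 and 3.28 in the Mongolian libraries, so that all libraries but Hu 3 lay close together. MED13 and MED13L, which link the kinase module to the rest of Mediator, were above 0 in all libraries. MED13 stood at 2.39, 3.11 and 8.14 across the Hu ovaries, compared with 4.28, 2.47 and 4.49 across the Mongolian ovaries, and its paralog MED13L at 3.07, 4.83 and 10.5 and at 7.71, 4.78 and 10.7. MED13L exceeded MED13 in 6 of 6 libraries, by 1.29-fold to 2.39-fold. MED28, a head subunit with the next highest mean and the highest Mediator gene in Hu 2 and Hu 3, stood at 0, 16.3 and 16.7 for Hu, with 6.36, 5.23 and 2.11 for Mongolian, so Hu 2 and Hu 3 lay above every Mongolian library and Hu 1 below.

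The Mediator subunits not yet named gave no separation in the rows kept. MED30 and MED31 were nearly confined to Hu 3, at 16.04 and 6.19 FPKM, against 0.683 for MED30 in Mongolian 3 and 0 in the remaining libraries. MED10, MED4, MED6 and MED8 were listed at 0 in the same 3 libraries, Hu 1, Hu 2 and Mongolian 3. This was not particular to Mediator. In all, 11 machinery genes had these zeros, among them POLR2G, POLR2H, POLR3G, TAF1B, TAF9B, GTF2H3 and GTF2H4. The pattern was not compared with all rows. The symbol MED4 had 3 rows, the others with means of 0.640 and 0.0584 FPKM, so its values are uncertain. The row with a mean of 0.640 stood at 0.140, 0 and 0.262 FPKM for Hu, with 0.390, 0.883 and 2.16 for Mongolian. In that row, unlike the row kept, every Hu value was below every Mongolian value. Over Mediator 6 tested subunits were higher in Hu and 13 lower, with a median log2 difference of -0.37, or -0.003 after quantile normalization and 0.23 without Hu 1.

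TAFs showed a gene on each side. TAF15, an RNA-binding protein that is found with part of TFIID, stood at 7.21, 10.1 and 12.8 FPKM in the Hu libraries, against 4.76, 2.54 and 5.74 in the Mongolian libraries. Every Hu value lay above every Mongolian value, with means of 10.04 ± 2.79 and 4.35 ± 1.64 (SD, n = 3 each) and a log2 difference, Hu minus Mongolian, of 1.06 (95% interval from -0.25 to 2.38; limma adjusted p = 0.998). TAF8, the partner of TAF10 in TFIID, stood at 0, 1.06 and 1.41 across the Hu ovaries, compared with 2.70, 2.65 and 6.11 across the Mongolian ovaries, without overlap (limma unadjusted p = 0.0709). TAF10 itself stood at 5.64, 11.9 and 16.1 for Hu, with 3.53, 9.92 and 10.6 for Mongolian, with wide overlap.

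TAF1, the largest TAF and a scaffold of TFIID, stood at 0.885, 1.1 and 4.12 FPKM in the Hu libraries, against 3.27, 3.29 and 3.62 in the Mongolian libraries. Hu 1 and Hu 2 were thus low and Hu 3 above all Mongolian libraries, which lay close to each other. TAF7, which binds TAF1, had the highest mean of all machinery genes over the 6 libraries and was the highest of them in 3, at 39.5, 13.9 and 37.8 across the Hu ovaries, compared with 23.9, 17.1 and 24.3 across the Mongolian ovaries. TAF1D, of the factor SL1 that serves RNA polymerase I, had the next highest mean among TAFs, at 10.4, 16.1 and 24.1 for Hu, with 14.5, 19.5 and 20.3 for Mongolian.

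The other SL1 subunits were low. TAF1A was above 0 in Hu 3 alone, at 1.04 FPKM, TAF1B reached at most 1.22, and TAF1C stood between 0.321 and 0.745 in all 6 libraries. TAF4B, a form of TAF4 known from the gonads, stood at 0, 0.676 and 0.403 in the Hu libraries, against 0, 0 and 1.22 in the Mongolian libraries, and TAF4 exceeded it in 6 of 6 libraries. Oocyte markers were at or near 0 in all libraries, and their part in the TAF4B values was not tested. Of the 14 TAFs tested, 5 were higher in Hu and 9 lower, with a median log2 difference of -0.16. It was 0.13 after quantile normalization, 0.03 without Hu 1 and 0.11 without Hu 2.

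Among the TFII factors, GTF2F1, the large subunit of TFIIF, had the highest mean and was the highest TFII or TFIII gene in 5 of 6 libraries, at 10.9, 18.3 and 20.8 FPKM across the Hu ovaries, compared with 20.0, 30.9 and 41.2 across the Mongolian ovaries. Of the Hu libraries 1 reached into the Mongolian range, and the log2 difference was -0.83 (95% confidence interval from -1.95 to 0.28). GTF2I, a regulator that binds initiator elements, had the next highest mean, at 10.2, 6.44 and 21.9 for Hu, with 13.7, 11.8 and 11.6 for Mongolian. GTF2B, the factor that bridges TFIID and the polymerase, stood at 2.69, 0.800 and 12.2 in the Hu libraries, against 5.69, 5.60 and 3.30 in the Mongolian libraries. In GTF2I and GTF2B the Mongolian libraries lay between the lowest and the highest Hu library.

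GTF2A1L, a TFIIA form known from germ cells, stood at 1.92, 4.60 and 7.24 FPKM across the Hu ovaries, compared with 2.63, 2.71 and 1.44 across the Mongolian ovaries. It was above 0 in all 6 libraries, which neither listed oocyte marker was. Only 2 of 10 oocyte markers were listed, and the part of oocytes in the GTF2A1L values was not tested. The common form GTF2A1 stood at 5.79, 3.35 and 13.4 for Hu, with 4.0, 7.04 and 3.79 for Mongolian, above GTF2A1L in 5 of 6. TFIIH opens DNA and phosphorylates the polymerase tail. Its core subunits of the GTF2H family were GTF2H1, GTF2H2C, GTF2H3 and GTF2H4, all listed at 0 in Hu 1. Of these GTF2H1 had the highest mean, at 0, 4.29 and 9.51 in the Hu libraries, against 3.60, 1.73 and 4.43 in the Mongolian libraries. GTF2H2C has near-identical copies in many mammals, and its values, at most 1.42 FPKM, are uncertain. The subunits with enzymatic roles carry other symbols. The helicase ERCC3 stood at 6.67, 2.40 and 4.50 FPKM in the Hu libraries, against 5.92, 3.35 and 3.29 in the Mongolian libraries, and was thus above 0 in all 6 and highest in Hu 1. Together with ERCC2, CCNH and MNAT1, 2 of 8 listed TFIIH genes were above 0 in Hu 1, 3 in Hu 2 and 8 in Hu 3, with 8, 7 and 4 in the Mongolian libraries.

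The factors of RNA polymerase III were low to moderate. GTF3A, which binds the genes of the smallest ribosomal RNA, stood at 0, 0 and 3.53 FPKM across the Hu ovaries, compared with 0.529, 0.575 and 2.07 across the Mongolian ovaries. GTF3C1, the largest subunit of TFIIIC, stood at 1.29, 3.53 and 2.90 for Hu, with 5.88, 3.01 and 9.51 for Mongolian, with means of 2.57 ± 1.16 and 6.13 ± 3.26 (SD, n = 3 each) and a log2 difference, Hu minus Mongolian, of -0.95 (95% interval from -2.45 to 0.56). GTF3C6 stood at 4.12, 0 and 20.8 in the Hu libraries, against 3.44, 5.57 and 0 in the Mongolian libraries. The TFIIIC genes thus did not share the pattern of POLR3K. Over the 18 TFII and TFIII factors tested, 6 were higher in Hu and 12 lower, with a median log2 difference of -0.16, or 0.17 after quantile normalization, 0.41 without Hu 1 and 0.07 without Hu 2.

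Other genes of transcription outside these families, 49 of 57 listed and 42 tested, gave 15 higher and 27 lower in Hu. None passed the adjusted threshold, and CCNC, the cyclin of the Mediator kinase module, had an unadjusted limma p of 0.0278. It stood at 6.19, 2.58 and 13.1 FPKM across the Hu ovaries, compared with 0, 3.93 and 0 across the Mongolian ovaries. Its kinase CDK8 stood at 0, 0 and 5.36 for Hu, with 0.653, 3.55 and 0 for Mongolian, and the alternative kinase CDK19 at 5.09, 2.11 and 8.37 and at 5.03, 3.38 and 6.27. CDK19 was thus above 0 in all 6 libraries and CDK8 in 3. Among genes of RNA polymerase III, the initiation factor subunit BDP1 stood at 6.97, 3.75 and 9.05 in the Hu libraries, against 6.70, 4.83 and 7.96 in the Mongolian libraries, its repressor MAF1 at 2.46, 9.29 and 13.4 and at 14.2, 12.3 and 15.4, and SSB, which binds its new transcripts, at 31.7, 11.1 and 50.6 and at 11.97, 16.7 and 6.08.

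The precision allowed few statements of similarity. The median 95% confidence interval of a machinery gene reached 1.56 to either side on the log2 scale. The median SD of log2 level within a breed was 0.98 in Hu and 0.56 in Mongolian libraries over the 78 genes, and 0.91 and 0.53 over all genes tested. Of the 78 genes, 26 kept the sign of their difference under every alternative in which they were tested, and 45 turned when 1 of the 6 libraries was left out. Among the 26 were POLR1E, POLR1G, POLR2A, POLR2E, POLR3B, POLR3K, MED22, MED24, TAF1, TAF8 and TAF15. POLR3K, MED22, MED24, TAF8 and TAF15 could not turn under another pseudocount, array weights or left-out libraries, since their breeds do not overlap. The filters and the replicate block left every difference unchanged, so keeping a sign there says nothing. The same counts over all genes tested were not taken.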

How the data were processed

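The authors deposited FPKM values per gene, 1 column per library, from 3 libraries of Hu ovary and 3 of Mongolian ovary. Per the labels' protocols, 1 μg of total RNA was made into libraries of polyadenylated RNA with a SMARTer kit. The sources used here do not give the aligner, counting tool, strand setting or genome build. A second table, of lncRNAs, was not used. Whole reads could not be recovered: at most 0.566% of genes under 2 FPKM shared a ratio between libraries within a 0.2% bin. Depth is therefore unknown, and no count model was run.

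The 9971 genes that reached 0.5 FPKM in 3 or more libraries were tested on log2(FPKM + 1) with limma 3.58.1 in R 4.3.3 (two-sided, breed as the only factor, eBayes with a trend, Benjamini-Hochberg adjustment, threshold 0.05); a fold on this scale understates the change of low genes. The test was tested on simulated data. The machinery genes, lists and named genes were chosen with earlier results of these data known. Named were the polymerase subunits, of which 1 is counted in its group but not reported here by itself, and, of the other groups, genes with an unadjusted p under 0.05 or without overlap, the 2 most abundant of each group and 12 genes of core function, of which 9 were listed; SNRNP25, RPL7A, SURF6 and a few further genes were chosen after their values were seen. RefSeq supplied names and neighbours only. Alternatives were other pseudocounts, filters, scalings, weights, a replicate block and leaving out libraries.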

Additional observations from a re-analysis of the deposited data

How the results depend on the processing

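Over all genes tested, the count past the adjusted threshold was 0 as reported, 633 with limma array weights, 6 with Hu 1 and Hu 3 left out together and 0 to 4 when 1 library was left out. Array weights, which put 3.64 on Hu 2 against 0.25 on Hu 3, also gave the sole machinery genes past it, POLR3K, MED22 and POLR1E. These were 3 of 78 machinery genes, against 633 of all 9971 genes tested. POLR3K met the filter through its Hu values alone, so its p is a description here too. Machinery genes with an unadjusted p under 0.05 numbered 2 as reported, 18 with array weights (23.1%, against 27.5% of all genes tested), 6 with Hu 1 and Hu 3 left out together (7.69% against 11.9%), 4 with median-of-ratios scaling (5.13% against 6.39%) and 5 with quantile normalization (6.41% against 5.83%). There was 1 among rows above 0 in all libraries (2.70% against 4.42%) and 0 with a filter at 5 FPKM (3.48% of all genes). When 1 library was left out there were 2 to 7, the most without Hu 3 (8.97% against 15.4%). The median log2 difference of TAFs was 0.35 with the filter at 5 FPKM, where that of all genes was -0.20. POLR1A turned to 0.0835 and POLR3A to 0.0937 after quantile normalization, and POLR3GL to -0.20 with array weights and -0.28 with Hu 1 and Hu 3 left out together. When 1 library was left out, POLR3A ranged from -0.82 to 0.0523 (without Mongolian 3) and POLR3GL from -0.10 to 0.23. The cause of these turns was not tested. Same-numbered libraries of the breeds did not deviate together (correlations of -0.01, -0.03 and -0.18 over genes), and the replicate block gave 0 genes. A depth in reads could not be had, and the number of libraries limits the precision.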
